A study of Mus musculus with 2 samples.

Results

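The intracellular fibroblast growth factor homologous factors, also called FHFs, are a family of 4 genes in the mouse, *Fgf11*, *Fgf12*, *Fgf13* and *Fgf14*. They were taken by their symbols from the 32285 genes of the deposited tables, each symbol matched 1 gene, and all 4 are described here in Cajal-Retzius (CR) cells of the hippocampus. Barcodes with at least 2000 unique molecular identifiers (UMIs, sequence tags that let each RNA molecule be counted once) and at least 5 *Reln* UMIs were measured, which left 1003 control cells and 390 knockout cells. The cells came from mice at P14. The control library pooled 4 *ΔNp73-Cre; Cic* flox/+; *tdT* mice, 3 males and 1 female, while 4 littermates, 2 males and 2 females, with the genotype *ΔNp73-Cre; Cic* flox/flox; *tdT* made up the knockout library. Controls therefore carried Cre, the tdTomato reporter and 1 floxed allele of *Cic*, which encodes the transcriptional repressor capicua. *ΔNp73-Cre* drives recombination in the lineage of CR cells, and tdT-positive, DAPI-negative cells were sorted for the 10x Genomics 3′ assay. There was 1 library per genotype, so no difference between genotypes had a replicate check and no significance test was made.

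FHFs share the folded core of the fibroblast growth factors but lack a signal for secretion and stay inside the cell. They bind the intracellular tail of voltage-gated sodium channels, and in neurons they are found at the axon initial segment, where action potentials start. There they are known to set the availability and the inactivation of sodium channels, and variants of *FGF12* and *FGF14* in people cause an epileptic encephalopathy and a spinocerebellar ataxia. CR cells are early glutamatergic neurons that secrete reelin, and those of the hippocampus die later than those of the neocortex.

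The 4 genes encode related proteins, and reads that fit several members could in principle be split between them, so a coding stretch of the conserved core is shown for each. Capitals mark the 37 of 60 bases that are identical in all 4 members (longest principal coding transcripts, GENCODE M21, GRCm38). Among aligned windows of 60 bases without gaps, this one was chosen because it held the most identical bases. The stretches start at coding base 529 (*Fgf11*), 535 (*Fgf12*), 523 (*Fgf13*) and 529 (*Fgf14*).
Fgf11: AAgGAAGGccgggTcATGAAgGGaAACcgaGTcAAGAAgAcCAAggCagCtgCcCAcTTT
Fgf12: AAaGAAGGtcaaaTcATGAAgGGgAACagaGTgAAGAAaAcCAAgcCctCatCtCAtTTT
Fgf13: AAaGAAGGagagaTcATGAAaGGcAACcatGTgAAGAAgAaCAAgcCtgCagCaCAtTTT
Fgf14: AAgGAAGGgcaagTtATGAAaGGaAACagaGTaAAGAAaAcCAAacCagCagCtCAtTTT

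Over the whole aligned coding sequence, identity between pairs ran from 62.9% (*Fgf11* and *Fgf14*) to 72.8% (*Fgf12* and *Fgf14*). No pair shared an exact coding run longer than 15 bases, and the longest run in the full transcripts was 28 bases, between *Fgf11* and *Fgf12*. All 4 genes lie on the minus strand (GRCm38). *Fgf11* is a compact gene at chr11:69796068-69801857, whereas *Fgf12* at chr16:28160098-28753068, *Fgf13* at chrX:59062145-59568071 and *Fgf14* at chr14:123977907-124677127 span 593, 506 and 699 kb. The antisense gene *1700024B18Rik* overlaps *Fgf14* on the opposite strand and was counted apart, with 55 control and 24 knockout UMIs in the cells.

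Control cells held a median of 6224 UMIs (2012 to 31769) and knockout cells a median of 6664 UMIs (2769 to 33453), and no cell barcode occurred in both libraries. All 8 CR markers (*Reln*, *Trp73*, *Lhx1*, *Lhx5*, *Ebf3*, *Calb2*, *Cacna2d2*, *Ndnf*) were detected in 25% or more of the cells of each library. For *Reln* this follows from the rule that chose the cells, so only the other markers are informative. Of the marker lists of 8 other cell types, none had more than 1 marker in 25% of cells, and their summed levels lay between 2.88 and 103 CPM (control) and between 1.81 and 88.9 CPM (knockout), where CPM are counts scaled to 1000000 UMIs per library. *Cic* itself was at 58.9 CPM (control) and 51.3 CPM (knockout), with 389 and 142 UMIs. These 3′ UMIs were not placed within the gene and so do not check the deletion. CPM were taken over UMIs outside mitochondrial and ribosomal protein genes, of which the control cells held 6601724 and the knockout cells 2765943.

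*Fgf12* was the most abundant member and *Fgf14* the second, and both had a far higher CPM in cells than in droplets without a cell, while *Fgf11* and *Fgf13* had few UMIs and a CPM near or below that of the droplets. *Fgf12*, whose product binds several neuronal sodium channels, had 2499 UMIs in the control, or 379 CPM (95% Poisson interval 364 to 394). In the knockout it had 1013 UMIs, or 366 CPM (344 to 390). *Fgf14*, the member named in spinocerebellar ataxia, had 1235 control UMIs (187 CPM, 177 to 198) and 488 knockout UMIs (176 CPM, 161 to 193). Intervals on UMIs and on shares of cells cover counting error only, and cells varied beyond it, for *Fgf14* above all.

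*Fgf11*, the shortest gene and the least studied member of the family, had 57 control UMIs (8.63 CPM, 6.54 to 11.2) and 30 knockout UMIs (10.8 CPM, 7.32 to 15.5). *Fgf13*, an X-linked gene whose product also binds microtubules, had 12 control UMIs (1.82 CPM, 0.939 to 3.18) and 13 knockout UMIs (4.70 CPM, 2.50 to 8.04). Per kb of the longest coding transcript, the control levels were 91.6 CPM for *Fgf12*, 51.8 for *Fgf14*, 2.84 for *Fgf11* and 0.728 for *Fgf13*, and the knockout levels were 88.5, 48.8, 3.55 and 1.88 CPM. The order was the same in both libraries, and the intervals of neighbours overlapped only for *Fgf11* and *Fgf13* in the knockout (2.41 to 5.10 and 1.00 to 3.22 CPM per kb). A 3′ assay counts molecules rather than fragments, so the values per kb understate long transcripts. *Fgf12*, *Fgf13* and *Fgf14* are also far longer genes than *Fgf11*. Whether introns were counted is not given, so the part of gene length in these levels was not tested.

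Droplets of 20 to 100 UMIs, which carry free RNA rather than a cell, gave the background. There *Fgf12* was at 52.8 CPM (control) and 74.0 CPM (knockout), and *Fgf14* at 17.0 and 14.8 CPM, several times below the cells. *Fgf11* in droplets stood at 24.8 CPM for the control and 29.3 CPM for the knockout, above its level in the cells of either library. *Fgf13* was at 0.918 CPM (2 UMIs) and 3.29 CPM (10 UMIs) in droplets, with intervals of 0.111 to 3.32 and 1.58 to 6.05 CPM that overlapped those of the cells. Per barcode, a UMI of *Fgf11* was found in 5.18% of control cells against 0.183% of control droplets, which hold far fewer UMIs. Subtracting free RNA at 5% of the UMIs of each cell left the knockout-to-control ratio of *Fgf11* at 1.27 and that of *Fgf13* at 2.56. How much of their UMIs in cells was free RNA was not otherwise measured, and their counts are small, so their ratios are given as values only.

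**Figure D1:**
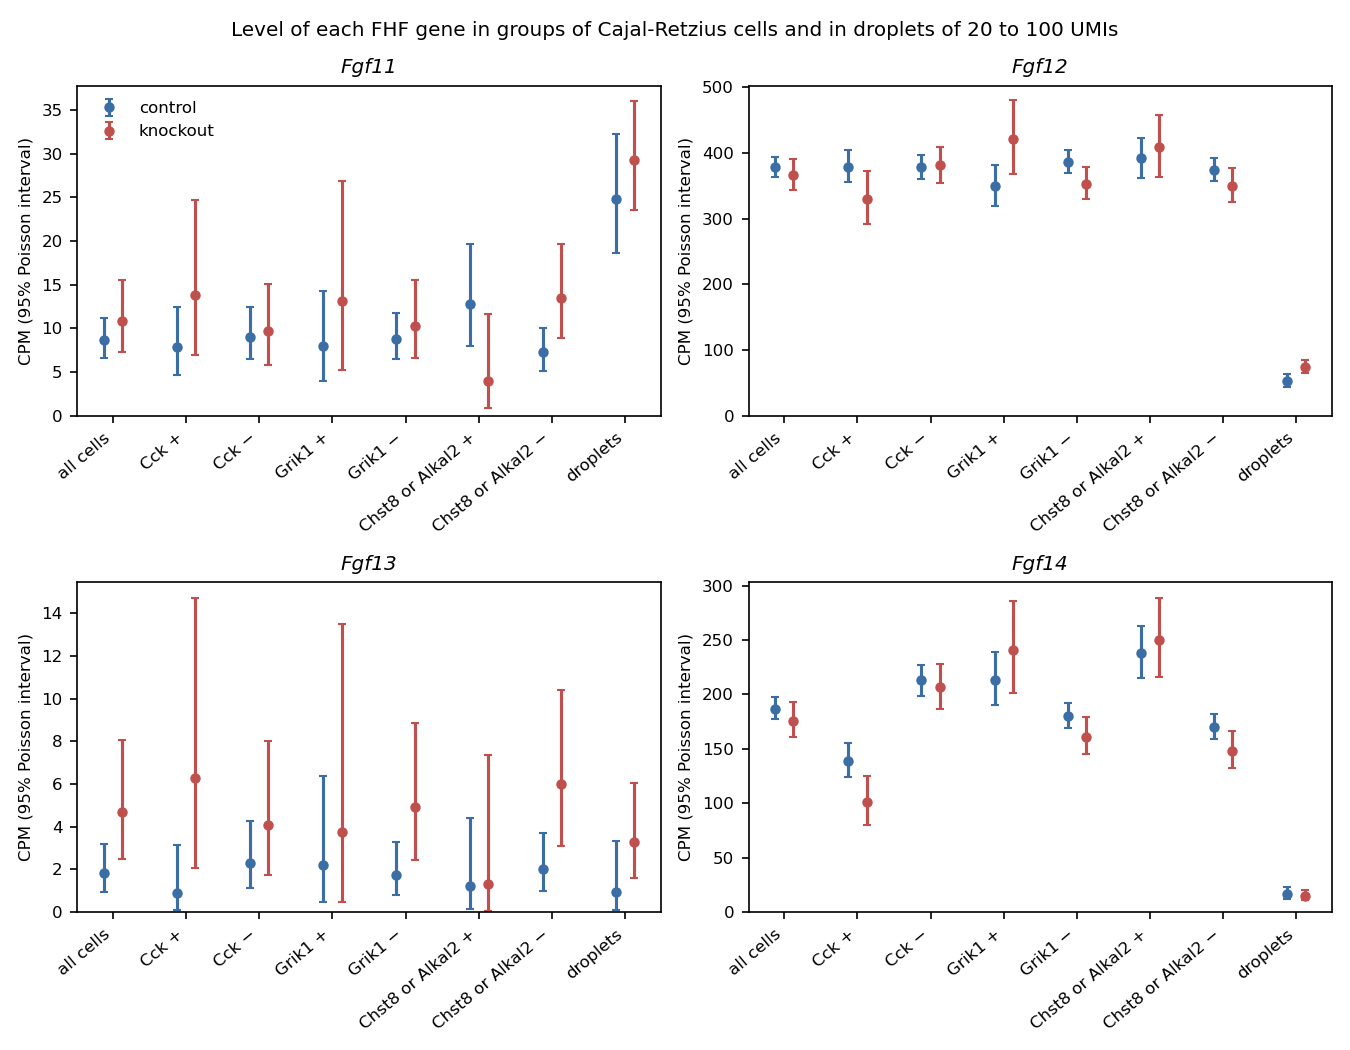
Level of each FHF gene in CPM (linear axes from 0, a scale for each gene) in all CR cells, in cells with (+) and without (−) a UMI of the gene named, and in droplets of 20 to 100 UMIs. Points are 1 library each (blue control, red knockout) and bars are 95% Poisson intervals. *Fgf12* and *Fgf14* lie far above the droplets, *Fgf11* lies below them, and *Fgf14* is lowest in Cck-positive cells at 139 CPM (control) and 101 CPM (knockout).

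*Fgf12* RNA was widespread over the cells, and *Fgf14* RNA, which had fewer UMIs, was found in fewer of them. A gene with fewer UMIs is found in fewer cells by counting alone, and the shares were not corrected for this. At least 1 *Fgf12* UMI was found in 80.9% of control cells (Clopper-Pearson interval 78.3 to 83.2%) and 76.9% of knockout cells (72.4 to 81.0%). *Fgf14* was found in 41.6% (38.5 to 44.7%) and 39.5% (34.6 to 44.5%). Only 5.18% and 6.67% of cells had a UMI of *Fgf11*, and 1.10% and 3.08% had 1 of *Fgf13*. In droplets, with their far lower depth, the share was at most 0.379% for any member. The values expected when every cell is thinned to 2000 UMIs were 48.0% and 45.5% for *Fgf12*, 23.3% and 20.8% for *Fgf14*, 1.63% and 1.84% for *Fgf11*, and 0.422% and 1.04% for *Fgf13*.

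**Figure D2:**
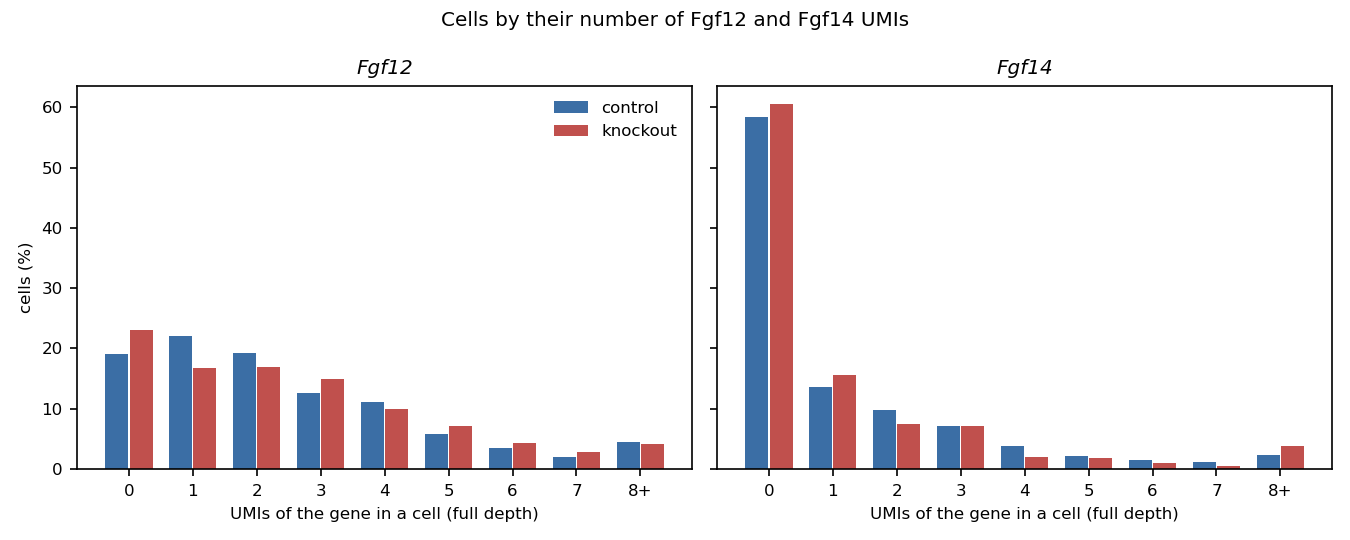
Share of cells (%) by the number of *Fgf12* (left) and *Fgf14* (right) UMIs in a cell at full depth, with 8 or more in the last bar (blue control, red knockout). No *Fgf14* UMI was found in 58.4% of control and 60.5% of knockout cells, yet 2.39% and 3.85% held 8 or more, against 19.1% and 23.1% without *Fgf12*.

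The 2 abundant members also differed in their spread over cells. At 2000 UMIs per cell, the variance of *Fgf12* was 1.18 (control) and 1.19 (knockout) times its mean, where pure counting noise gives a value near 1. For *Fgf14* it was 1.67 and 1.87 times the mean. The tenth of cells with the most UMIs of the gene held 30.9% (control) and 31.2% (knockout) of *Fgf12* UMIs, but 52.1% and 60.2% of *Fgf14* UMIs. This share, taken at full depth, also rises when a gene has fewer UMIs. The highest single cell held 23 *Fgf14* UMIs in the control and 27 in the knockout, or 1.86% and 5.53% of all *Fgf14* UMIs there. *Cck* and *Grik1*, which mark subsets of these cells, had values of 2.34 and 2.25 (control) and of 1.99 and 1.37 (knockout).

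Both abundant members were found together in 354 of 1003 control cells and 123 of 390 knockout cells, and no cell held all 4 members. *Fgf11* and *Fgf13* were each found in few cells, so the lack of cells with all 4 says little about whether cells share them. At full depth, *Fgf14* had a UMI in 43.6% of control cells with *Fgf12* and in 32.8% of those without it, and in 41.0% and 34.4% in the knockout. With every cell thinned to 2000 UMIs, the expected shares were 24.6% and 22.0% in the control and 22.6% and 19.4% in the knockout. The gap in percentage points between cells with and without *Fgf12* was smaller at equal depth than at full depth. Thinning lowers both shares and so narrows such a gap, and the part of depth was not tested.

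The comparison of genotypes asks whether the knockout of the repressor CIC goes along with another level of the family. The authors report that this Cre line removed CIC from most but not all hippocampal CR cells, measured at a later age. Some knockout cells may therefore have kept CIC, and they could not be told apart here. Over all cells, the 2 abundant members stood at nearly the same level in the knockout as in the control. The ratio of knockout to control was 0.968 for *Fgf12* (95% interval 0.899 to 1.04) and 0.943 for *Fgf14* (0.848 to 1.05). These intervals leave out a change of 1.5-fold for these 2 libraries, as far as counting error goes. Of all 9442 genes with at least 100 UMIs over both libraries, 4.40% differed by at least 1.5-fold either way, and *Fgf12* and *Fgf14*, the only members with that many UMIs, were not among them. The median log2 ratio over those genes was 0.01. *Fgf11* had a ratio of 1.26 (0.779 to 1.99), and *Fgf13* had a ratio of 2.59 (1.09 to 6.20) that rested on 13 against 12 UMIs, while *Fgf13* in droplets moved from 0.918 to 3.29 CPM.

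CIC is known to bind octamers of the form TGAATGAA, TGAATGGA, TCAATGAA and TCAATGGA. A search of both strands found none of these letters in the 10 RefSeq promoter windows of the 4 members (250 bases before to 50 bases after each start, GRCm38.p6). Over all genes, 3.84% of 32851 windows of that length held at least 1, so finding none in 10 does not set the members apart. *Fgf14* had 1 window, at chr14:124192497-124192796 inside the gene, and its far annotated start was not searched. This says only that these letters are not in those windows.

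**Figure D3:**
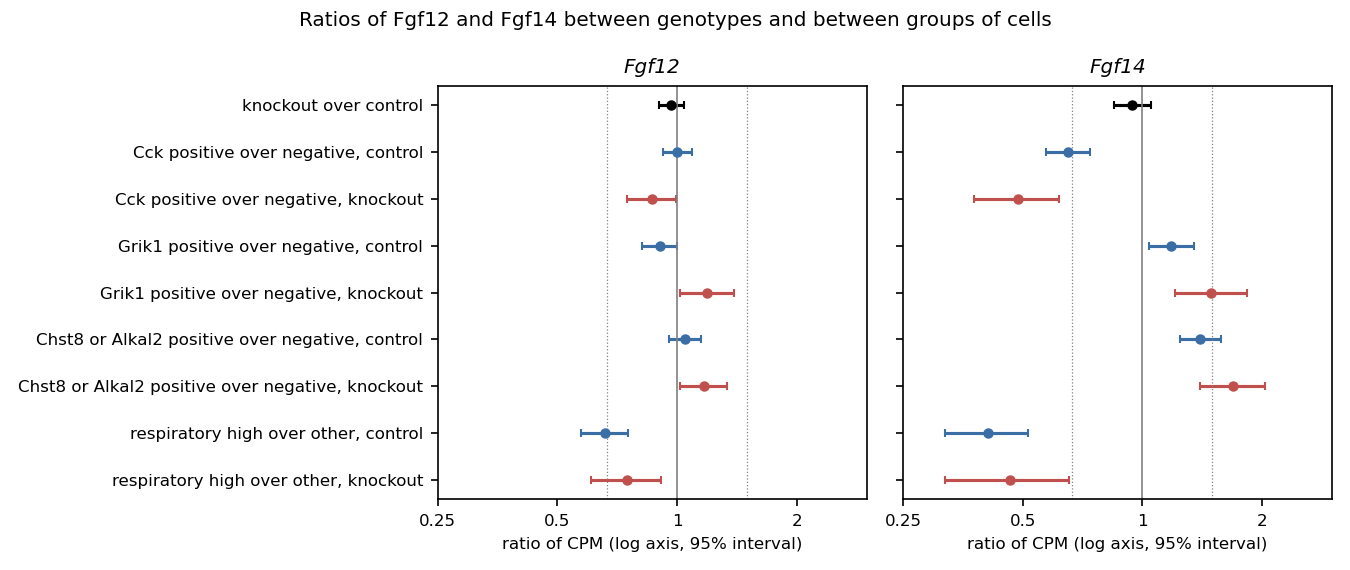
Ratios of CPM with 95% intervals (log axis) for *Fgf12* (left) and *Fgf14* (right): knockout over control in black, and, within each library, cells with a UMI of the named gene over cells without and respiratory-high cells over the others (blue control, red knockout). The dotted lines mark 1.5-fold either way. *Fgf14* lies left of 1 by *Cck* (0.651 and 0.486) and right of 1 by *Chst8* or *Alkal2* (1.40 and 1.69), whereas *Fgf12* by *Cck*, *Grik1* and *Chst8* or *Alkal2* stays within 0.864 and 1.19. In respiratory-high cells *Fgf12* is at 0.658 and 0.747.

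*Cck*, *Grik1*, *Chst8* and *Alkal2* are genes by which subsets of these cells can be told apart. A cell was called positive with at least 1 UMI of the gene. *Cck*, which encodes the neuropeptide cholecystokinin, marked 324 control cells (32.3%) and 110 knockout cells (28.2%). *Fgf14* was lower in Cck-positive cells in both libraries. In the control, *Fgf14* was at 139 CPM (124 to 155) in Cck-positive and 213 CPM (199 to 227) in Cck-negative cells, a ratio of 0.651 (0.571 to 0.740). In the knockout, it was at 101 CPM (79.7 to 125) and 207 CPM (187 to 228), a ratio of 0.486 (0.377 to 0.618). The intervals of the 2 ratios overlap, and whether they differ was not tested.

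*Fgf12* had no such difference in the control, at 379 CPM in Cck-positive and 378 CPM in Cck-negative cells, a ratio of 1.00 (0.923 to 1.09). In the knockout its ratio was 0.864 (0.748 to 0.996). In each library the interval of *Fgf12* did not overlap that of *Fgf14*, as far as counting error goes. *Fgf14* varied over cells beyond counting error, and whether the 2 genes differ given that spread was not tested. A difference of at least 1.5-fold either way by *Cck* was found in 5.06% of 8303 genes (control) and 8.25% of 5225 genes (knockout). Of the 5215 genes tested in both libraries, 0.940% or 49 genes were at least 1.5-fold lower in each. *Fgf14* was 1 of these 49 genes. Such a count over both libraries was made only for *Cck* and only for lower genes, the side on which *Fgf14* lay. It therefore does not measure how rare such a gene is.

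The direction of the *Fgf14* difference by *Cck* was kept in every alternative run, with control ratios of 0.588 to 0.918 and knockout ratios of 0.271 to 0.580. The value of 0.918 came from 1 random draw of 2000 UMIs per cell, the value expected over such draws was 0.690, and 40 further draws ran from 0.458 to 0.866. In cells without UMIs of *Grik1*, *Chst8* or *Alkal2* and in cells of middle depth (4000 to under 8000 UMIs) the direction was the same, but the control ratios of 0.726 and 0.723, like the expected 0.690, were short of 1.5-fold, so *Fgf14* would not be among the genes past 1.5-fold in each library there. Cck-positive cells had a similar depth (medians of 6397 against 6148 UMIs in the control and 6788 against 6650 in the knockout). They included somewhat more cells with a high share of respiratory genes (9.57% against 6.92%, and 10.0% against 6.43%), in which *Fgf14* was low, and the direction held without those cells. Summed markers of other cell types were at 281 against 366 CPM (control) and 312 against 362 CPM (knockout), and their part was not tested.

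*Chst8*, a sulfotransferase gene, and *Alkal2*, the gene of a ligand of the kinase ALK, marked 232 control cells (23.1%) and 91 knockout cells (23.3%) with at least 1 UMI of either. *Fgf14* was higher in them. It was at 238 CPM (215 to 263) against 170 CPM (159 to 182) in the control, a ratio of 1.40 (1.24 to 1.58), and at 250 CPM (216 to 289) against 148 CPM (132 to 166) in the knockout, a ratio of 1.69 (1.40 to 2.03). The knockout value rested in part on single cells: of the 190 *Fgf14* UMIs in positive cells, 1 cell held 27 and another held 25. By these genes, 6.40% (control) and 8.06% (knockout) of all genes tested were past 1.5-fold, among which *Fgf14* counted only in the knockout. In cells of middle depth alone the knockout ratio was 1.16 (0.821 to 1.60), and positive cells were deeper there, with a median of 7869 against 6361 UMIs. *Fgf12* had ratios of 1.05 (0.955 to 1.15) and 1.17 (1.02 to 1.34).

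*Grik1*, which encodes a kainate receptor subunit, marked 194 control cells (19.3%) and 70 knockout cells (17.9%). *Fgf14* was at 213 CPM in Grik1-positive and 180 CPM in Grik1-negative control cells, a ratio of 1.18 (1.04 to 1.35), and at 241 and 161 CPM in the knockout, a ratio of 1.49 (1.21 to 1.83). Neither passed 1.5-fold, which 6.82% and 7.92% of genes did. The knockout value rested in part on 1 cell: without the cell with 27 *Fgf14* UMIs it was 1.21 (0.959 to 1.51). In control cells of middle depth the ratio was 0.997 (0.817 to 1.21). For *Fgf12* the ratios were 0.904 (0.816 to 0.999, control) and 1.19 (1.02 to 1.39, knockout). The knockout value was 0.979 at the expected thinning, 0.942 at middle depth and 0.809 among cells without the other subset genes, so its opposite direction was not kept there.

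*Fgf11* and *Fgf13* had from 1 to 46 UMIs in any of these groups of cells, and their ratios changed side between the libraries or the alternatives. The lowest was 0.220 for *Fgf13* by *Chst8* or *Alkal2* in the knockout (1 against 12 UMIs, 0.00516 to 1.49) and the highest 1.77 for *Fgf11* by the same genes in the control (21 against 36 UMIs, 0.983 to 3.12).

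When each cell was put in only 1 group, the order of *Fgf14* levels followed the same lines. In the control it was lowest in respiratory-high cells (82.9 CPM) and in cells with only *Cck* (145 CPM), then 192 CPM in cells without any of these genes, 198 CPM in cells with several, 246 CPM in cells with only *Grik1* and 280 CPM in those with only *Chst8* or *Alkal2*. In the knockout, the respiratory-high cells and those with only *Cck* were also lowest (88.7 and 90.0 CPM), followed by 173 CPM without any of the genes, 184 CPM with only *Grik1*, 279 CPM with several and 288 CPM with only *Chst8* or *Alkal2*. Single cells weighed on the highest knockout groups: 1 cell held 27 of the 93 UMIs with several. Another held 25 of the 97 UMIs with only *Chst8* or *Alkal2*. Neighbours in these orders had overlapping intervals except respiratory-high and only-Cck cells (65.1 to 104 and 124 to 168 CPM) and only-Cck and gene-negative cells (124 to 168 and 174 to 212 CPM) in the control, and in the knockout only-Cck and gene-negative cells (63.4 to 124 and 148 to 200 CPM). *Fgf12* ran over a narrower range outside the respiratory-high cells, from 335 to 421 CPM (control) and from 318 to 470 CPM (knockout).

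**Figure D4:**
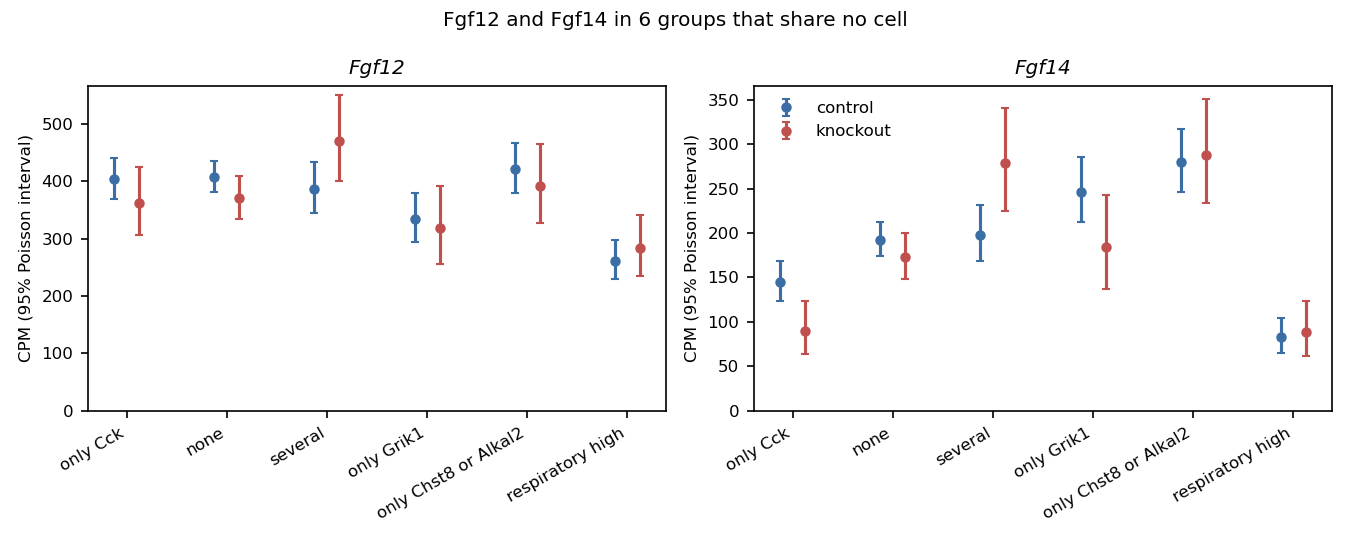
*Fgf12* (left) and *Fgf14* (right) in CPM (linear axes from 0) in 6 groups of cells that share no cell, with 95% Poisson intervals (blue control, red knockout). *Fgf14* is at 145 and 90.0 CPM in cells with only *Cck* and at 280 and 288 CPM in cells with only *Chst8* or *Alkal2*. *Fgf12* is lowest in respiratory-high cells, at 261 and 284 CPM.

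Respiratory-high cells, in which nuclear genes of oxidative phosphorylation took at least 2% of UMIs, numbered 78 (control) and 29 (knockout) and were deep, with medians of 13556 and 14508 UMIs. Both abundant members were lower in them than in the other cells. *Fgf14* had ratios of 0.408 (0.318 to 0.516) and 0.464 (0.319 to 0.655), and *Fgf12* had ratios of 0.658 (0.572 to 0.753) and 0.747 (0.608 to 0.910). Such differences were common there, since 53.2% (control) and 49.8% (knockout) of the genes tested were past 1.5-fold either way.

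Male and female cells, told apart by *Xist* and 4 Y-linked genes, had similar levels of the abundant members. The ratio of female to male cells was 0.953 (0.863 to 1.05) and 1.00 (0.881 to 1.14) for *Fgf12*, and 0.988 (0.858 to 1.13) and 1.16 (0.961 to 1.39) for *Fgf14*, in the control and the knockout. X-linked *Fgf13* had 0 UMIs in 227 female and 11 UMIs in 702 male control cells, and 5 UMIs in 176 female and 8 UMIs in 194 male knockout cells. The libraries differed in their number of males and females.

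The channels and scaffolds with which FHFs work were examined by lists. Of 9 sodium channel alpha subunit genes, 3 had at least 100 UMIs, *Scn3a* (211 CPM control, 209 CPM knockout), *Scn2a* (144 and 154 CPM) and *Scn8a* (74.5 and 73.4 CPM), with ratios of 0.992 (0.899 to 1.09), 1.07 (0.956 to 1.21) and 0.985 (0.832 to 1.16). *Scn1a*, a main channel of inhibitory neurons, had 50 and 31 UMIs. All 4 beta subunit genes passed 100 UMIs and none passed 1.5-fold. The median log2 ratio was -0.01 over the alpha and 0.07 over the beta subunit genes, against 0.01 over all genes.

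Of 7 genes of the axon initial segment, 1 was past 1.5-fold, where 4.40% of all genes tested were. *Nrcam*, which encodes a cell adhesion molecule of the initial segment and the node of Ranvier, had 41 control UMIs (6.21 CPM) and 101 knockout UMIs (36.5 CPM), a ratio of 5.88 (4.05 to 8.67). It was found in 37 control and 63 knockout cells, with at most 2 and 5 UMIs in a cell, and in droplets it was at 2.75 and 6.58 CPM. *Ank3*, the gene of the master scaffold ankyrin-G, was the most abundant of the list at 3149 and 2758 CPM, a ratio of 0.876 (0.853 to 0.899). *Nfasc*, the gene of its membrane partner neurofascin, had a ratio of 1.18 (1.12 to 1.25), and *Trim46*, which bundles microtubules there, had 1.37 (1.10 to 1.69). None of the 5 genes of calmodulins and JIP scaffolds, also partners of FHFs, was past 1.5-fold, and *Mapk8ip2*, the gene of the scaffold JIP2, was farthest from 1 at 1.29 (1.14 to 1.46).

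The secreted members of the FGF family were scarce. Of 18 genes, 1 had at least 100 UMIs, *Fgf1*, with 19 control UMIs (2.88 CPM) and 122 knockout UMIs (44.1 CPM), a ratio of 15.3 (9.41 to 26.3). *Fgf20* rested on 43 and 38 UMIs (6.51 and 13.7 CPM), below the minimum, and *Fgf9* on 61 and 28 UMIs. *Fgf1* thus had fewer UMIs in the knockout than *Fgf14*, which had 488.

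**Figure D5:**
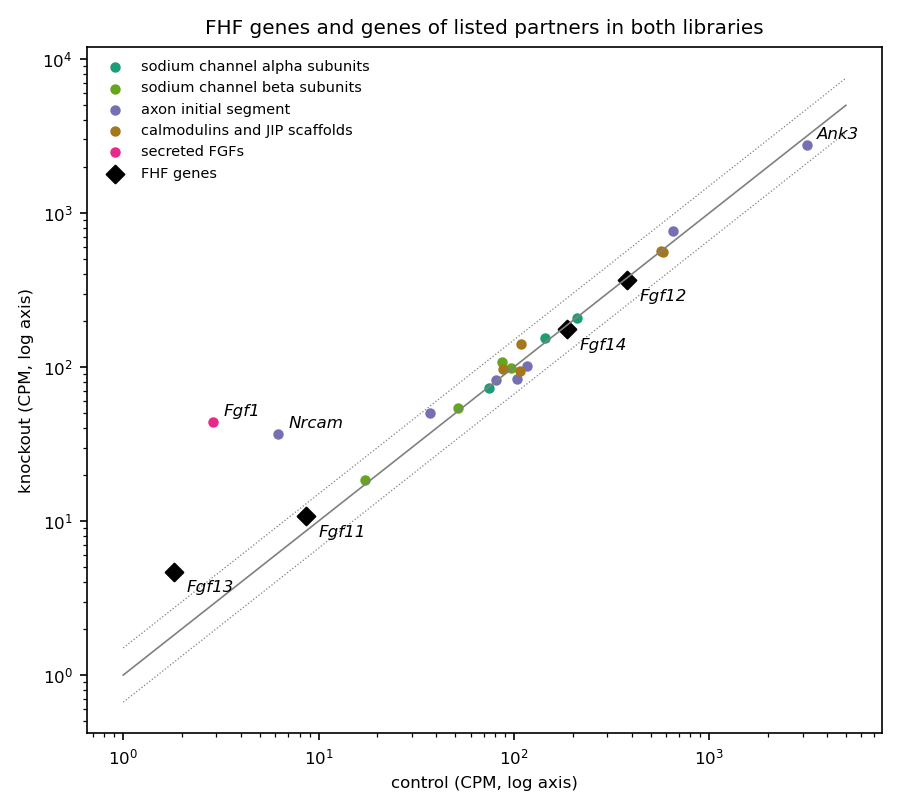
Control against knockout level in CPM (both axes log) of the 4 FHF genes (black diamonds) and of the listed genes with at least 100 UMIs over both libraries (dots, coloured by list). The solid line marks equal levels and the dotted lines 1.5-fold. *Fgf12* and *Fgf14* lie on the line, *Fgf1* and *Nrcam* lie above the upper dotted line, and *Fgf13* lies above it with 12 and 13 UMIs.

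By *Cck*, 5.06% (control) and 8.25% (knockout) of all genes tested were past 1.5-fold. The lists of partners are short, and their shares were not tested against these. In the control, 1 of 4 beta subunit genes was past 1.5-fold (*Scn4b*, 0.585, 0.365 to 0.910). None of 3 alpha subunit genes, 6 genes of the axon initial segment and 5 of calmodulins and JIP scaffolds was. In the knockout, 1 of 3 alpha subunit genes (*Scn3a*, 0.576, 0.463 to 0.710) and 1 of 7 genes of the axon initial segment (*Kcnq3*, 0.547, 0.382 to 0.768) were past 1.5-fold. None of 3 beta subunit genes and 5 of calmodulins and JIP scaffolds was. *Scn4b* was below the minimum there, with 16 against 35 UMIs, and its ratio of 1.13 (0.585 to 2.10) lay on the other side of 1. In the control, *Scn3a* was at 0.829 (0.738 to 0.931) and *Kcnq3*, a potassium channel subunit gene, at 0.776 (0.656 to 0.917). *Scn2a* had ratios of 0.959 and 1.10 and *Ank3* of 1.02 and 1.03. Over the 12 groups of cells (6 exclusive groups in each library), the genes with a pattern of log2(CPM + 1) most like *Fgf14* among 7176 genes included *Usp29* (Pearson's r = 0.956) and *Ttc19* (0.951). Those most like *Fgf12* were *Jph1* (0.951), *Slc23a2* (0.948) and *P2ry12* (0.944), the last of which is also on the microglia marker list. The groups of 1 library share their depth and preparation, and without the respiratory-high groups the genes most like *Fgf14* were others, led by *Pcdh7* (0.965). For *Fgf11* and *Fgf13*, whose patterns rest on few UMIs, the closest included *Frem2* (0.861) and *Rabl6* (0.844), and *Mycbp* (0.893), *Phf10* (0.867) and *Lztr1* (0.866).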

How the data were processed

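Sorted tdT-positive hippocampal cells of 4 pooled mice per genotype gave 1 library each. The authors deposited raw counts of UMIs for 32285 genes in every barcode, with no normalization or cell calling. The submitters' processing notes name Cell Ranger 8.0.1 and mm39, the file headers Cell Ranger 4, and the methods another version on mm10. Whether introns were counted and the strand are not given in the sources used here. Positions came by gene identifier from GENCODE M21 (32158 of 32285 identifiers matched).

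Cells were the barcodes with at least 2000 UMIs and 5 *Reln* UMIs (1011 control and 406 knockout barcodes had the UMIs). Summed UMIs were scaled to 1000000 UMIs outside 192 mitochondrial and ribosomal protein genes (prefixes mt-, Rpl, Rps, Mrp), with exact 95% Poisson and Clopper-Pearson intervals and exact conditional intervals for ratios (Python 3.11.15, numpy 2.4.6, scipy 1.17.1). These cover counting error only, and UMIs of 1 cell are not independent. Genes counted as past 1.5-fold needed 100 UMIs. A ratio against 0 UMIs used a floor of 3 counts. Doublets were kept. An alternative left out the 8 control cells and 1 knockout cell that Scrublet (scanpy 1.11.5) scored highest, and another the cells outside limits of 3 median absolute deviations (952 and 372 cells were inside). Thinned values were planned as 1 random draw of 2000 UMIs per cell. After the ratio of *Fgf14* by *Cck* in the control was seen to differ between single draws, the value expected over all draws was added and is the one given for shares, and both are reported. Other alternatives covered the limits on UMIs and *Reln*, the scaling, the mean of single cells, free RNA, sex, depth and positivity.

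The members and gene lists were chosen with earlier results of these data known. Named genes were the members, from each list the 2 highest in the control and the 2 ratios farthest from 1 among genes with 100 UMIs, and the 3 genes most like each member (at least 200 UMIs); some genes that this rule names are not reported here, and others, such as *Scn3a*, *Kcnq3* and *Scn4b* by *Cck*, *Scn1a*, *Fgf9* and *Fgf20*, were named after their values were seen. On Poisson counts simulated for the genotype comparison, intervals held the true ratio for 95.6% of 9232 unchanged genes and for 90.7 to 97.8% of genes at each of 4 known ratios. These counts had no spread between cells or mice, so they check only the calculation of the intervals. Whether the intervals hold in real cells was not tested, and intervals within a library were not simulated. Coding identity and the printed stretch came from the longest principal coding transcript of each gene. Shared runs were the longest over all coding transcripts of each pair.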

Additional observations from a re-analysis of the deposited data

Results flagged for a closer look

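Some contrasts went in opposite directions in the 2 libraries. With 1 library per genotype, the difference between the libraries was not tested in any of them. For *Fgf12*, Grik1-positive over Grik1-negative cells gave a ratio of 0.904 in the control and 1.19 in the knockout, but the knockout value was below 1 at the expected thinning (0.979), at middle depth (0.942) and among cells without the other subset genes (0.809). For *Fgf14*, female over male cells gave 0.988 and 1.16.

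The others rest on few UMIs. For *Fgf11*, the control and knockout ratios were 0.870 and 1.43 by *Cck*, 0.907 and 1.27 by *Grik1*, 1.77 and 0.294 by *Chst8* or *Alkal2*, 0.989 and 1.02 for female over male cells, and 0.233 and 3.00 for respiratory-high over other cells. For *Fgf13*, they were 0.377 and 1.55 by *Cck* and 1.26 and 0.756 by *Grik1*.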

How the results depend on the processing

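The genotype ratios and the ratios by *Cck*, *Grik1* and *Chst8* or *Alkal2* were recomputed under the alternatives. Shares of cells and the *Fgf13* ratios by sex were recomputed under some of them. Ratios of respiratory-high cells, of the other members by sex and of the listed genes were not. A value counts as moved when it left the 95% interval of the reported one. *Fgf14* moved in 16 of 113 comparisons and *Fgf12* in 11 of 113. No recomputed *Fgf14* ratio reported past 1.5-fold changed side, and *Fgf12* had none that far from 1 among those recomputed. *Fgf11* moved in 7 of 113 and changed side in 3, and *Fgf13* moved in 4 of 112 and changed side in 7. A change of side was counted only where the reported ratio was at least 1.5-fold from 1. Smaller ratios that crossed 1 are not in these counts. For example, the genotype ratio of *Fgf11* went from 1.26 to 0.876 without respiratory-high cells.

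With 1 random draw of 2000 UMIs per cell, the genotype ratio of *Fgf14* was 0.841, its ratios by *Cck* were 0.918 (control) and 0.271 (knockout), by *Grik1* in the knockout 2.14, and by *Chst8* or *Alkal2* in the control 1.19. The ratios of *Fgf12* by *Chst8* or *Alkal2* were 1.22 and 1.35, that of *Fgf11* by *Grik1* in the knockout was 4.05, and the knockout ratios of *Fgf11* and *Fgf13* by *Chst8* or *Alkal2* were 3.08 and 4.93. A draw is a small sample: over 40 other draws, *Fgf14* by *Cck* ran from 0.458 to 0.866 in the control and from 0.194 to 0.923 in the knockout, below 1 in all 40 draws of each, while by *Chst8* or *Alkal2* it ran from 0.850 to 1.78 and from 0.671 to 2.87. The expected value over draws, chosen after single draws were seen to differ, moved *Fgf12* by *Grik1* in the knockout to 0.979. Shares of cells in 1 draw were 47.0% and 47.7% (*Fgf12*), 23.6% and 20.0% (*Fgf14*), 2.19% and 2.05% (*Fgf11*) and 0.299% and 1.28% (*Fgf13*), and the expected ones 48.0% and 45.5%, 23.3% and 20.8%, 1.63% and 1.84%, and 0.422% and 1.04%, lower by construction since fewer UMIs are kept.

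With positivity at 2 UMIs, the knockout ratios of *Fgf14* were 0.334 by *Cck*, 2.16 by *Grik1* and 2.06 by *Chst8* or *Alkal2*, that of *Fgf11* by *Grik1* was 0.378, and those of *Fgf13* by *Chst8* or *Alkal2* were 1.82 (control) and 1.22 (knockout). The alternatives that follow were chosen after seeing the data. In cells of middle depth, *Fgf14* was at 0.997 by *Grik1* in the control and 1.16 by *Chst8* or *Alkal2* in the knockout, *Fgf12* in the knockout at 1.02 by *Cck* and 0.942 by *Grik1*, *Fgf11* at 0.415 by *Grik1* in the knockout and at 0.859 and 1.13 by *Chst8* or *Alkal2*, and *Fgf13* at 1.15 and 1.13 by the latter. Among cells without UMIs of the other subset genes, the knockout ratios were 1.10 (*Fgf14*) and 0.809 (*Fgf12*) by *Grik1*, and 1.00 (*Fgf12*) and 1.18 (*Fgf13*) by *Chst8* or *Alkal2*. Without the cell highest in the member, *Fgf14* by *Grik1* in the knockout was 1.21 and *Fgf13* by *Cck* there was 0.933. Apart from the shares and the single cell named, the cause was not tested.

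No paired analysis was possible because each genotype has 1 library, and no replicate was left out for the same reason. Thinning gave no value for *Fgf13* by *Cck* in either library or by *Grik1* and by *Chst8* or *Alkal2* in the control in 1 or both of its forms, nor for *Fgf13* by sex, where the mean of single control cells gave none either, and middle depth gave none for *Fgf13* by *Cck* in the knockout. Depth limits *Fgf11* and *Fgf13* most, with 57 and 12 control UMIs.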
